A study of Mus musculus with 20 samples.

Results

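The glycolysis genes of murine bone marrow-derived dendritic cells (BMDCs) are described here: 33 genes for glucose and lactate transport, the glycolytic enzymes and the enzymes that regulate them. They were taken by symbol from a count table of 24421 genes. The list was drawn up by pathway, with earlier results of these data known. All 33 passed the filter on low counts that 12465 genes passed.

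Marrow cells of wild-type C57BL/6 mice were cultured to BMDCs for 8 days with 40 ng/mL GM-CSF, a growth factor for myeloid cells. They were then given ovalbumin alone (Ova) or ovalbumin bound by IgG in immune complexes (IC) for 4 h. This was done with I-BET151 (iBET, a BET bromodomain inhibitor, at 3.3 uM) or with its solvent DMSO (5% in the labels), which gave the groups DMSO Ova and DMSO IC as well as iBET Ova and iBET IC. The labels describe simultaneous addition, whereas the methods place iBET shortly before the stimulus. Each of 5 mice (A to E) gave 1 library to each group, 20 in all, and the labels tie the 4 libraries of a mouse to that animal. The labels do not give the DMSO content of the iBET wells.

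Glycolysis turns glucose into pyruvate in the cytosol, and the cell then exports the carbon as lactate or passes it to the mitochondria. Several steps can be run by alternative isoenzymes, products of separate genes that differ in regulation: the hexokinases trap glucose, phosphofructokinase commits it to breakdown, and the PFKFB enzymes set the level of a sugar phosphate that activates phosphofructokinase. Dendritic cells and macrophages are known to raise glycolysis when they are activated. BET proteins read acetylated histones and help transcription to start and elongate. Immune complexes act on these cells through Fc gamma receptors.

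Counts per library ran from 16447491 to 29245150, and the 33 genes held between 0.664% and 0.864% of them. Levels are given in CPM, counts brought to a common library size after scaling by TMM (edgeR's correction for library composition). Markers of dendritic cells (10 of 10 listed), macrophages (12 of 12) and neutrophils (11 of 11 in the table) each had counts in at least 1 library. So did those of B cells (6 of 6) and T cells (6 of 6 in the table). The filter on low counts passed 10, 11, 9, 0 and 1 of these markers in the same order. By summed level, the B cell markers reached at most 0.772 CPM and the T cell markers at most 1.37 CPM. The summed macrophage list ranged from 10400 to 20900 CPM over the 20 libraries, the dendritic cell list from 4580 to 9670 CPM and the neutrophil list from 460 to 950 CPM. In bulk RNA, fewer cells of a type and less RNA per cell cannot be told apart. Libraries of mice A and B also lay apart from those of C, D and E on the second principal component (14.9% of the variance, scores of -33.8 to -18.6 against 9.83 to 23.5). The labels name no batch, so values within each of these sets of mice stand beside the counts that they move.

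The upstream sequences of 6 genes, chosen after their values were seen, are shown so that their letters can be compared. They are the 250 bases upstream of the RefSeq transcript start (GRCm38.p6, read 5′ to 3′ on the gene's strand) of Pgam1 and Hk2, with the largest called rises after IC, of Slc16a1 and Pfkl, with the largest rises under iBET, and of Eno3 and Hk3, with large falls under iBET. The Pfkl window lies inside the GENCODE gene, whose outermost start is further upstream. For Pgam1, Slc16a1 and Eno3 the RefSeq start lies before the GENCODE gene start (41911923, 104638668 and 70657202). The 2 annotations thus differ on the start of these genes too. Capitals mark ACGTG or GCGTG on either strand, the core of the hypoxia response element bound by HIF proteins.
Pgam1 (chr19:41911621-41911870, plus strand): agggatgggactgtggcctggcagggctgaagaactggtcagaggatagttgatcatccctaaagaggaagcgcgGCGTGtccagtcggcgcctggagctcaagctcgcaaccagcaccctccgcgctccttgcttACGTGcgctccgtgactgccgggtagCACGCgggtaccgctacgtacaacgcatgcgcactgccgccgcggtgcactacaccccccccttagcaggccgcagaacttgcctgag
Hk2 (chr6:82774455-82774704, minus strand): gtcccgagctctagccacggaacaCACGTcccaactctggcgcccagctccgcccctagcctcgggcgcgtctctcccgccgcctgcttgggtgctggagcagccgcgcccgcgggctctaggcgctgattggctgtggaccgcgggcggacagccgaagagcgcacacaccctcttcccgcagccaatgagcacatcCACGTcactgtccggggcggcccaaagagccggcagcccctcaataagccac
Slc16a1 (chr3:104638414-104638663, plus strand): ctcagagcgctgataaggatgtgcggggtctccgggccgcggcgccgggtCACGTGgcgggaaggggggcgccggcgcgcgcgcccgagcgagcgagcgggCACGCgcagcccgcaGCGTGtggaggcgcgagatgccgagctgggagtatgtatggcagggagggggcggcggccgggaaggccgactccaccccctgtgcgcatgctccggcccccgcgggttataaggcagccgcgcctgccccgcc
Pfkl (chr10:78009808-78010057, minus strand): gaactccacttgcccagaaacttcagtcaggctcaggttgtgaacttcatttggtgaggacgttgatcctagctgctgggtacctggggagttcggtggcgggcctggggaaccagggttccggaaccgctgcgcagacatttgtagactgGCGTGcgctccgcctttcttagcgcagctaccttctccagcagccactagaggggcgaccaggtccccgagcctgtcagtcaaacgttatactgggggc
Eno3 (chr11:70656926-70657175, plus strand): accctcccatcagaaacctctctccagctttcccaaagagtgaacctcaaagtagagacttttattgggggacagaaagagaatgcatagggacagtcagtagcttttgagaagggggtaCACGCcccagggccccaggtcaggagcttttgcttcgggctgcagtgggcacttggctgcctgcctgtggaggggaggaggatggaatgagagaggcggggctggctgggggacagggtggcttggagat
Hk3 (chr13:55021386-55021635, minus strand): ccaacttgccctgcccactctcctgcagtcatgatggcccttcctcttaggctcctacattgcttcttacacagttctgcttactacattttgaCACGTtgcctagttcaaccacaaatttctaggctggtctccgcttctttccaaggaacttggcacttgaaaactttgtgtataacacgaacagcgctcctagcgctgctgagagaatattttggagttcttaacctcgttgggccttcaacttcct
The core occurred 3 times upstream of Pgam1, 2 times upstream of Hk2, 4 times upstream of Slc16a1 and 1 time upstream of each of Pfkl, Eno3 and Hk3. In Slc16a1, 2 of the 4 matches overlap, since CACGTG, the E-box known from MYC and ChREBP family proteins, reads as ACGTG on both strands. The Slc16a1 window was 76.4% G and C with 37 CpG pairs, that of Hk2 69.6% with 25 and that of Pgam1 64% with 22. The Pfkl window was 59.2% with 13, that of Eno3 57.2% with 3 and that of Hk3 47.2% with 6. Of the other genes named for the largest falls under iBET, Slc16a3 had 29 pairs (73.6%). Pfkfb3 had 24 and 14 pairs in its windows (68.4% and 60.4%). Whether CpG content goes with the direction of change was not tested. Of 32851 windows in the whole RefSeq table, 38.6% held the core and 6.02% held CACGTG. Among the 48 windows of 32 listed genes (Slc2a3 was not matched), the shares were 79.2% and 12.5%. These windows had a median G and C content of 59.8% against 52.4%, and a median of 13 CpG pairs against 6. The core and the E-box each contain a CpG pair. Whether the listed windows hold more matches at equal CpG content was not tested. Such a match is a description of the letters and not of a binding event.

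With iBET, the glycolysis genes moved in both directions, also within families of isoenzymes. In Ova-treated BMDCs 10 of the 33 genes rose and 8 fell (edgeR quasi-likelihood test, Benjamini-Hochberg adjusted over all genes tested). Slc16a1, Pfkl and Pgm1 rose most, and Eno3, Pfkfb3 and Hk3 fell most. In IC-treated BMDCs 9 rose and 8 fell, led by Slc16a1, Pfkl and Pfkm on one side and Eno3, Slc16a3 and Pfkfb3 on the other. Of all genes tested, 27.7% rose and 28.9% fell in Ova, and 27.1% rose and 29% fell in IC, so the counts of glycolysis genes lay close to the background. The median log2 fold change was 0.076 over the 33 genes and -0.0029 over all genes in Ova, and 0.084 against -0.0054 in IC. Groups did not overlap for 9 of the 33 genes in Ova, against 38% of all genes tested, and for 11 in IC, against 42.8%, so these counts were below the background. Each called gene moved the same way in 5 of 5 mice, except Pfkm, Gapdh, Pkm and Bpgm in Ova, which did so in 4 of 5.

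Mouse identity was taken up as a block in a second fit. It called 13 glycolysis genes higher and 10 lower in Ova (33.5% and 35.2% of all genes), and 13 higher and 11 lower in IC (32.6% and 35.4%). Within mice A and B alone 5 genes were called higher and 10 lower with iBET in Ova (24.1% and 24.6% of all genes), with a median log2 fold change of -0.088. Within mice C, D and E the counts were 17 higher and 8 lower (27.2% and 30.1% of all genes), with a median of 0.185, so the balance turned between these sets of mice. In IC the counts were 9 higher and 7 lower in A and B (22.2% and 24.4%) and 9 and 10 in C, D and E (26.7% and 30.2%).

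**Figure D1:**
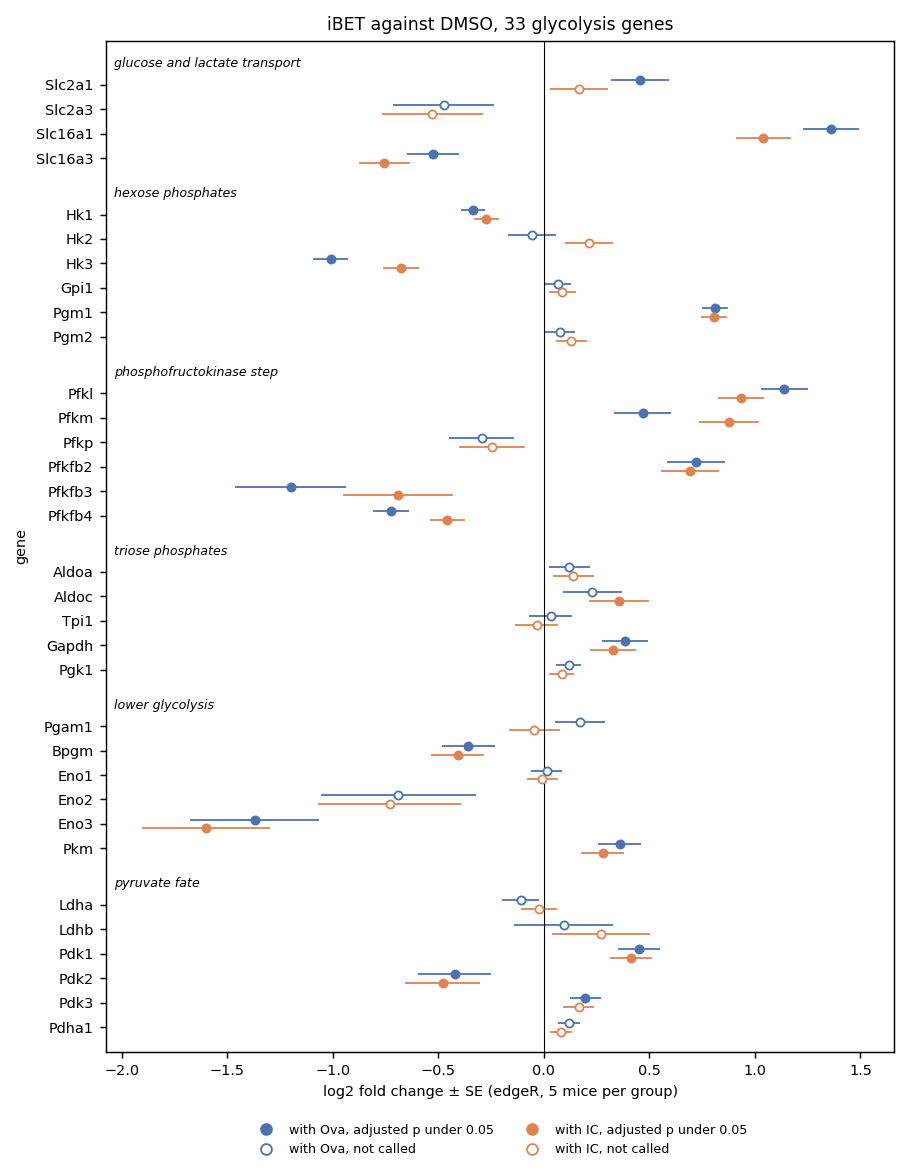
Log2 fold change (x axis) with its standard error for iBET against DMSO in each of the 33 glycolysis genes (y axis), with Ova in blue and with IC in orange. Filled points passed an adjusted p of 0.05. Slc16a1 and Pfkl stand at the right and Eno3 at the left under both stimuli, while Gpi1, Tpi1, Pgk1, Eno1 and Ldha lie within 0.12 of 0 in both.

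With immune complexes, 3 of 5 triose phosphate genes and 3 of 6 lower glycolysis genes rose under either treatment. In DMSO, 12 of the 33 genes rose and 2 fell, where 9.59% of all genes rose and 10.7% fell. Pgam1, Hk2 and Slc2a1 had the largest called rises, and Pfkm and Pfkfb4 were the genes that fell. In iBET, 10 rose and 0 fell, where 5.19% of all genes rose and 6.63% fell, led by Hk2, Pgam1 and Gapdh. The median log2 fold change was 0.129 against -0.024 for all genes in DMSO, and 0.178 against -0.014 in iBET. Groups did not overlap for 6 genes in DMSO and for 4 in iBET, where 12.4% and 10% of all genes did not, so these counts lay close to the background. Each called gene moved the same way in 5 of 5 mice, except Gapdh in iBET, which rose in 4 of 5.

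The number of calls after IC depended on which mice were in the fit without the block, among all genes as among glycolysis genes. In DMSO it was 11, 12, 4, 5 and 8 genes higher without mouse A, B, C, D and E in turn, while the share of all genes was 9.77%, 8.04%, 4.54%, 5.3% and 6.59%. In iBET it was 5, 2, 2, 2 and 9, with 3.73%, 2.92%, 2.27%, 2.38% and 4.43% of all genes. With the mouse as a block, 14 genes were higher and 3 lower in DMSO (18.3% and 19.8% of all genes), and 14 higher and 1 lower in iBET (14.2% and 14.7%). In that fit, leaving out each mouse in turn (added after the first counts were seen) kept between 12 and 16 genes higher in DMSO and between 10 and 15 in iBET. The shares of all genes ran from 12.9% to 17.5% and from 8.93% to 15.4%. Within mice A and B 3 genes were called higher after IC in DMSO and within C, D and E 15, where the shares of all genes were 4.23% and 13.1%. In iBET the counts were 8 and 4, with 3.71% and 4.53% of all genes. Scaling by library size alone lowered the median of all genes by 0.107 in both comparisons. Relative to that median, 26 of the 33 genes lay above it in DMSO and 27 in iBET under every scaling tried. A change of scaling moves all genes by nearly the same amount, so this count could hardly change. The count of genes above 0 could: it was 21 in DMSO and 26 in iBET with TMM, and 17 and 19 with library size alone. No called gene changed sign. Scaling by library size alone left 3 genes called higher and 2 lower after IC in iBET, where 2.51% and 16.3% of all genes were.

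**Figure D2:**
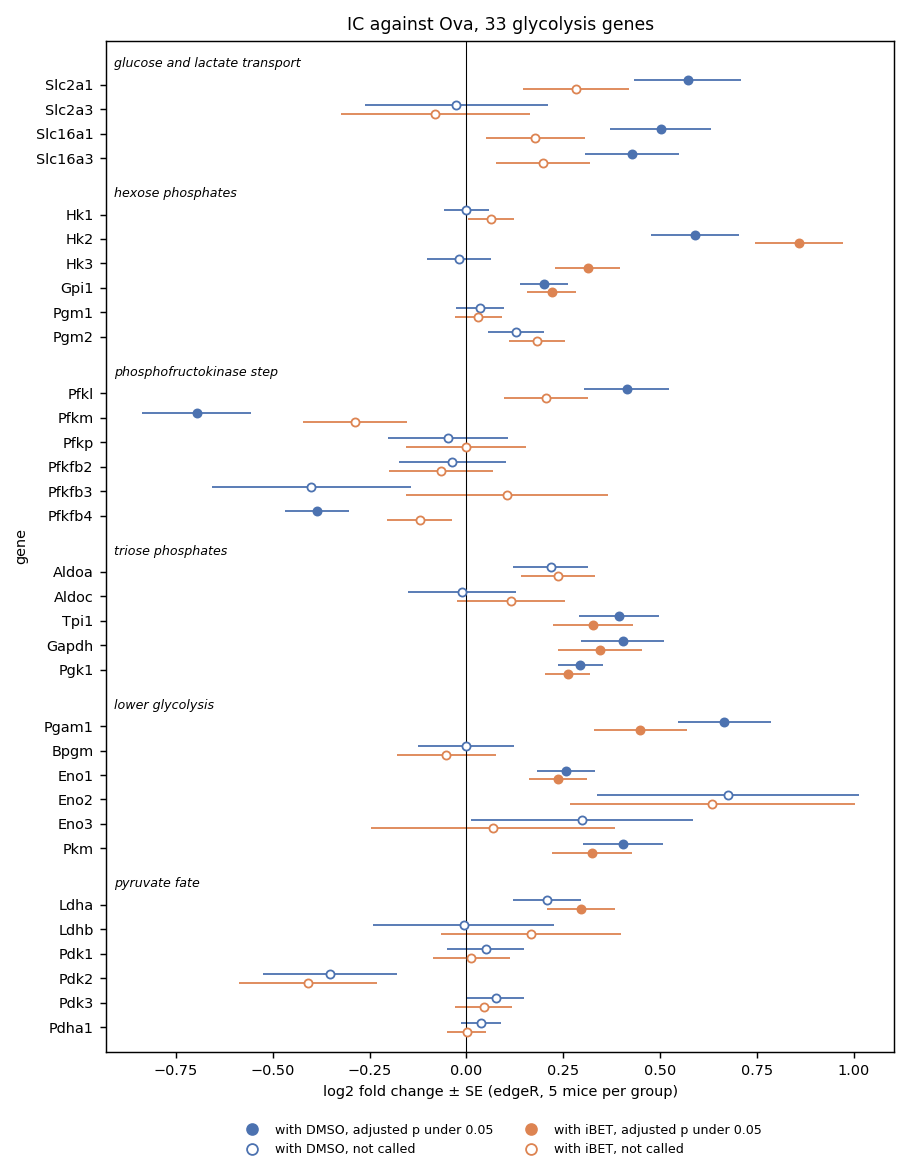
Log2 fold change (x axis) with its standard error for IC against Ova in each of the 33 glycolysis genes (y axis), with DMSO in blue and with iBET in orange. Filled points passed an adjusted p of 0.05. Pgk1, Pgam1, Eno1, Pkm, Tpi1 and Gapdh are filled and right of 0 in both, and Pfkm at -0.70 and Pfkfb4 at -0.39 are the filled points left of 0.

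Among the genes for glucose and lactate transport, the lactate transporters went in opposite directions with iBET. Slc16a1, a monocarboxylate transporter that moves lactate and pyruvate in either direction (chr3:104638668-104658462, plus strand, GENCODE M21 on GRCm38), read 37.3, 32.6, 26, 24.3 and 28 CPM in mice A to E in DMSO Ova and 86.7, 93.1, 67.8, 63.3 and 69.5 CPM in iBET Ova. Its 5 values in DMSO IC were 49, 45.1, 42.1, 38.1 and 35.6 CPM, and those in iBET IC 97.1, 96.5, 84.3, 78.5 and 73.9 CPM. Every iBET library lay above every DMSO library. The log2 fold change with iBET was 1.36 ± 0.13 (SE) in Ova, higher in 5 of 5 mice (adjusted p = 3.54e-08), and 1.04 ± 0.13 in IC (adjusted p = 1.16e-06). After IC in DMSO, Slc16a1 rose by 0.50 ± 0.13 (adjusted p = 0.0106), a call lost without mouse C (adjusted p = 0.0744).

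Slc16a3, the low-affinity transporter that exports lactate from glycolytic cells (chr11:120948480-120960868, plus strand), went the other way with iBET. In DMSO IC it read 111, 125, 107, 116 and 104 CPM in mice A to E, and in iBET IC 67.9, 64.9, 69.4, 73.7 and 57.4 CPM. DMSO Ova held 87.9, 116, 71.5, 80.2 and 63.5 CPM and iBET Ova 58.5, 49.9, 56.3, 68.1 and 57.7 CPM. All IC-treated DMSO libraries were above all iBET ones, whereas in Ova mouse E with DMSO lay below mouse D with iBET. Slc16a3 fell by 0.76 ± 0.12 on the log2 scale in IC (adjusted p = 2.76e-05) and by 0.53 ± 0.12 in Ova (adjusted p = 0.00109), in 5 of 5 mice each. Within mice C, D and E the Ova difference was -0.24 (adjusted p = 0.0902), against -0.90 within A and B. IC raised it in DMSO by 0.43 ± 0.12 (adjusted p = 0.0174), a call that did not hold without mouse C, D or E (adjusted p = 0.106, 0.08 and 0.0583) or within A and B (0.22, adjusted p = 0.407).

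Slc2a1, the main glucose importer of these cells (chr4:119108711-119137983, plus strand), read 139, 107, 119, 94.3 and 110 CPM in mice A to E in DMSO Ova and 194, 183, 171, 132 and 166 CPM in DMSO IC. With iBET it read 176, 149, 189, 109 and 159 CPM in Ova and 185, 207, 222, 154 and 182 CPM in IC. Mouse D was lowest in all 4 groups, and the groups overlapped because of the spread between mice. Slc2a1 rose after IC in DMSO (0.57 ± 0.14, higher in 5 of 5 mice, adjusted p = 0.00648) and with iBET in Ova (0.46 ± 0.14, 5 of 5 mice, adjusted p = 0.00791). Within mice A and B the values were 0.61 and 0.40 (adjusted p = 0.0777 and 0.125). Under both treatments together, the values were 0.17 ± 0.14 for iBET in IC (adjusted p = 0.31, and 0.0432 with the block) and 0.28 ± 0.14 for IC in iBET (adjusted p = 0.198, and 0.00513 with the block). Slc2a3, a high-affinity importer, had at most 7.91 CPM, and its differences with iBET of -0.47 and -0.53 were called with the block only (adjusted p = 0.00106 and 0.000603).

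**Figure D3:**
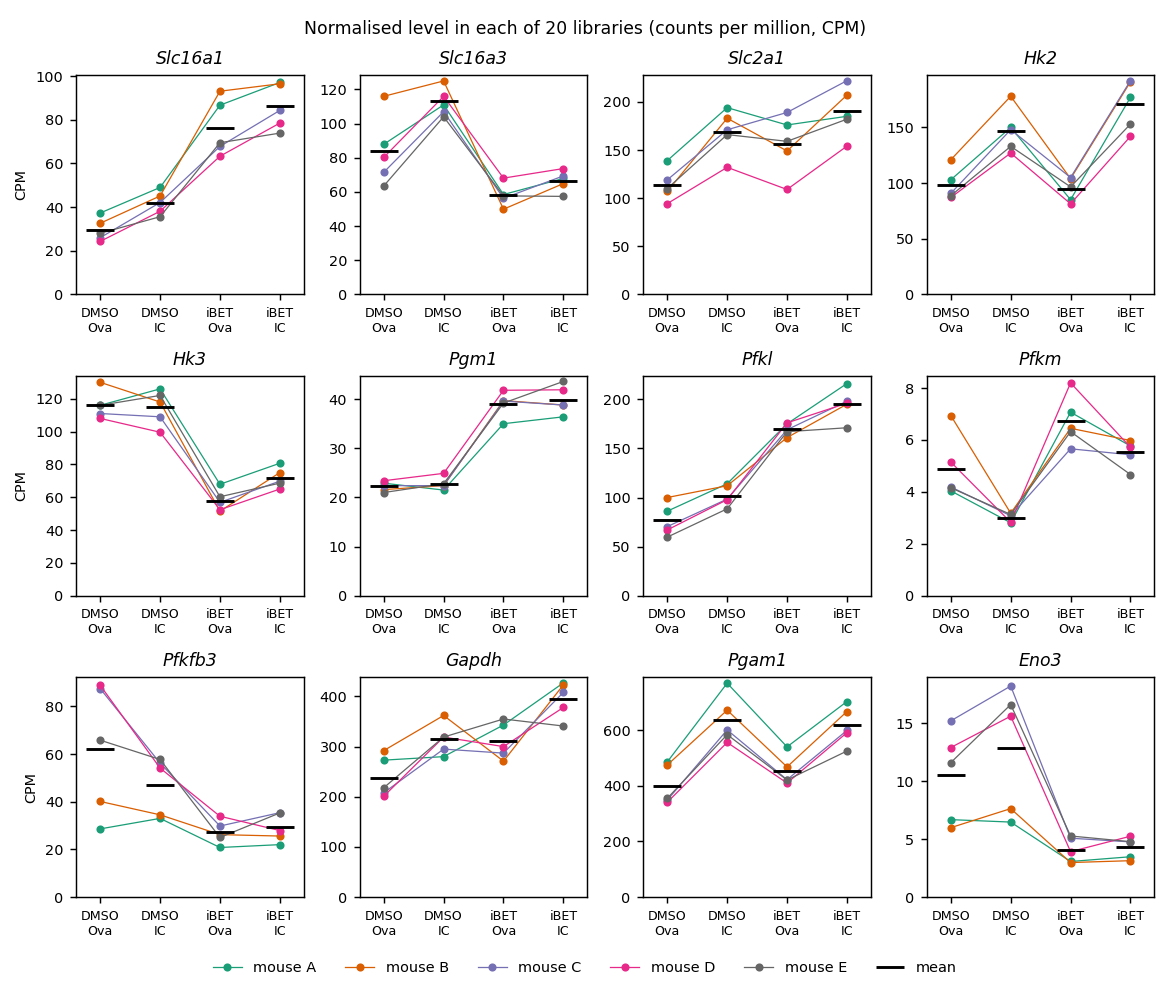
CPM (y axis, from 0) of 12 glycolysis genes in the 4 groups (x axis), with 1 line per mouse and a black bar for the group mean of 5 libraries. Slc16a1 and Pfkl are higher and Hk3 lower in all iBET libraries, Hk2 and Pgam1 step up from Ova to IC, and mice A and B start lower for Pfkfb3 and Eno3 in DMSO.

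Among the enzymes of hexose phosphates, Hk2 rose after IC under both treatments and Hk3 fell with iBET. Hk2, the inducible hexokinase that docks on mitochondria (chr6:82725025-82774454, minus strand), read 103, 121, 90.8, 87.1 and 88.7 CPM in mice A to E in DMSO Ova and 150, 178, 148, 127 and 133 CPM in DMSO IC. The iBET groups held 85.1, 104, 105, 81.4 and 96.6 CPM with Ova and 177, 191, 192, 142 and 153 CPM with IC. IC libraries were above Ova libraries without overlap under either treatment. Hk2 rose after IC by 0.59 ± 0.11 in DMSO (adjusted p = 0.00127) and by 0.86 ± 0.11 in iBET (adjusted p = 6.36e-05), in 5 of 5 mice each, and both calls held without any 1 mouse. With iBET its differences were -0.055 in Ova and 0.21 in IC, the latter called with the block only (adjusted p = 0.00599).

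Hk3, a hexokinase of myeloid cells (chr13:55005985-55021385, minus strand), read 116, 130, 111, 108 and 116 CPM in mice A to E in DMSO Ova and 67.9, 51.5, 56.9, 52.4 and 60.3 CPM in iBET Ova. With IC the values were 126, 118, 109, 99.6 and 122 CPM in DMSO and 80.7, 75, 69.8, 65 and 68.6 CPM in iBET. No iBET library reached the lowest DMSO library. The fall was 1.01 ± 0.084 on the log2 scale in Ova, to a fold of 0.497 (adjusted p = 4.83e-09), and 0.68 ± 0.084 in IC (adjusted p = 1.02e-06). In iBET, Hk3 rose after IC by 0.31 ± 0.084 in 5 of 5 mice (adjusted p = 0.0191), a call lost without mouse B or C (adjusted p = 0.0945 and 0.0832) and within either set of mice (0.38 in A and B and 0.26 in C, D and E, adjusted p = 0.052 and 0.0969).

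Hk1, the hexokinase found in most tissues, fell with iBET by 0.34 ± 0.059 in Ova and by 0.27 ± 0.059 in IC (adjusted p = 6.54e-05 and 0.000547), and its values after IC were -0.00029 and 0.063. Gpi1, which interconverts the hexose phosphates, rose after IC by 0.20 ± 0.063 in DMSO and 0.22 ± 0.063 in iBET, in 5 of 5 mice each (adjusted p = 0.0294 and 0.0268, and 0.00684 and 0.00474 with the block). Those calls were lost without mouse A, C, D or E in DMSO and without A, B, C or D in iBET. Gpi1 after IC in DMSO was 0.105 within A and B (adjusted p = 0.458) and 0.26 within C, D and E, and in iBET 0.30 and 0.17 (adjusted p = 0.0945 for the latter). Pgm1, listed as a phosphoglucomutase that links glycogen to glycolysis, read 22.9, 21.6, 22.4, 23.4 and 21 CPM in mice A to E in DMSO Ova and 35, 39.7, 39.6, 41.8 and 39.2 CPM in iBET Ova. Its values with IC were 21.5, 22.4, 22.4, 24.9 and 22.8 CPM in DMSO and 36.4, 38.8, 38.8, 41.9 and 43.6 CPM in iBET. The libraries separated fully by drug, with rises of 0.81 ± 0.061 in both stimuli (adjusted p = 1.35e-09 and 1.32e-09). Mouse annotations have exchanged the symbols Pgm1 and Pgm2, so which of the 2 loci this row holds is uncertain and no position is given. Pgm2 passed the threshold in none of the comparisons without the block, with log2 fold changes from 0.076 to 0.18.

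At the phosphofructokinase step the liver-type subunit rose with iBET. Pfkl (chr10:77986947-78010083, minus strand) read 86.1, 100, 70.4, 67 and 59.7 CPM in mice A to E in DMSO Ova and 175, 161, 169, 176 and 167 CPM in iBET Ova. With IC it read 114, 112, 98.4, 97.8 and 88.5 CPM in DMSO and 216, 195, 198, 196 and 171 CPM in iBET. The iBET libraries were all above the DMSO libraries. Pfkl rose by 1.14 ± 0.11 in Ova, a fold of 2.21 (adjusted p = 3.73e-08), and by 0.94 ± 0.11 in IC (adjusted p = 5.42e-07), in 5 of 5 mice each. IC raised it in DMSO by 0.41 ± 0.11 (adjusted p = 0.0119), a call lost without mouse C or D (adjusted p = 0.08 and 0.0736), and the value was 0.28 within A and B (adjusted p = 0.0939) and 0.53 within C, D and E. Its rise with iBET in Ova was 0.85 and 1.38 in these sets.

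Pfkm, the muscle-type subunit (chr15:98092589-98132451, plus strand), was scarce, with 53 to 182 counts per library. It read 4.04, 6.94, 4.19, 5.15 and 4.16 CPM in mice A to E in DMSO Ova, 2.81, 3.18, 3.08, 2.83 and 3.13 CPM in DMSO IC, 7.07, 6.45, 5.66, 8.2 and 6.32 CPM in iBET Ova and 5.77, 5.98, 5.43, 5.72 and 4.67 CPM in iBET IC. DMSO IC was the lowest group and overlapped with no other. Pfkm fell after IC in DMSO by 0.70 ± 0.14 (adjusted p = 0.00176, lower in 5 of 5 mice) and rose with iBET by 0.88 ± 0.14 in IC (adjusted p = 2.37e-05) and 0.47 ± 0.14 in Ova (adjusted p = 0.00601, higher in 4 of 5 mice, and 0.33 within A and B, adjusted p = 0.211). Pfkp, the platelet-type subunit and the most abundant of the family per kilobase in DMSO, had differences with iBET of -0.29 and -0.25, lower in 5 of 5 mice each and called with the block only (adjusted p = 1.56e-05 and 0.000146).

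The PFKFB genes, whose products make and remove the activator of phosphofructokinase, split with iBET. Pfkfb3, the isoform with the strongest kinase bias (chr2:11471433-11554077, minus strand), read 28.6, 40.1, 87.4, 88.8 and 65.8 CPM in mice A to E in DMSO Ova and 20.8, 26.2, 29.8, 33.9 and 25 CPM in iBET Ova. Its IC values were 33, 34.5, 56.2, 54.1 and 57.7 CPM in DMSO and 22, 25.6, 35.4, 27.9 and 35.3 CPM in iBET. Mice A and B had the lowest DMSO values, and the groups overlapped through mouse A in Ova and through both in IC. Pfkfb3 fell with iBET by 1.20 ± 0.26 in Ova (adjusted p = 0.000629) and by 0.69 ± 0.26 in IC (adjusted p = 0.0292), in 5 of 5 mice each. In Ova the difference was -0.55 for mice A and B alone and -1.45 for C, D and E, and the IC call was lost without mouse C, D or E (adjusted p = 0.0648, 0.0926 and 0.0834).

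Pfkfb4 (chr9:108991778-109032228, plus strand) read 43.9, 51.9, 36.9, 48.4 and 42.8 CPM in mice A to E in DMSO Ova and 37.2, 35.9, 29.6, 33.7 and 35 CPM in DMSO IC. With iBET it read 27.1, 24.3, 27.7, 29.7 and 26.7 CPM in Ova and 25.8, 23.8, 23.3, 25 and 26.8 CPM in IC. Each mouse was lower after IC in DMSO, and all iBET libraries lay under the DMSO libraries of the same stimulus. The fall after IC in DMSO was 0.39 ± 0.083 (adjusted p = 0.00282, and 0.0569 within A and B), and that with iBET 0.72 ± 0.083 in Ova and 0.46 ± 0.084 in IC (adjusted p = 4.05e-07 and 0.000104). Pfkfb2, the heart-type isoform, rose with iBET by 0.72 ± 0.14 in Ova and 0.69 ± 0.14 in IC (adjusted p = 0.000163 and 0.000248), in 5 of 5 mice each without overlap.

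Among the enzymes of triose phosphates, Gapdh, Tpi1 and Pgk1 rose with IC. Gapdh, which makes the first NADH of the pathway (chr6:125161715-125166467, minus strand), read 273, 292, 208, 201 and 218 CPM in mice A to E in DMSO Ova and 280, 362, 295, 319 and 319 CPM in DMSO IC. In iBET the values were 343, 271, 287, 300 and 355 CPM with Ova and 427, 423, 408, 378 and 341 CPM with IC. The groups overlapped in each comparison, and mouse E in iBET was the exception to the rise after IC. IC raised Gapdh by 0.40 ± 0.11 in DMSO (5 of 5 mice, adjusted p = 0.0126, and 0.00272 with the block) and by 0.35 ± 0.11 in iBET (4 of 5 mice, adjusted p = 0.0424, and 0.0129 with the block). The call in DMSO was lost without mouse C, D or E (adjusted p = 0.075, 0.0939 and 0.0531), and that in iBET without A, B, C or D (adjusted p = 0.0817, 0.136, 0.191 and 0.125). Within mice A and B the value after IC in DMSO was 0.19 (adjusted p = 0.432) and within C, D and E 0.57, while in iBET it was 0.47 and 0.26 (adjusted p = 0.14 for the latter). Gapdh also rose with iBET, by 0.39 ± 0.11 in Ova and 0.33 ± 0.11 in IC (adjusted p = 0.00494 and 0.0145). The Ova difference was 0.12 for mice A and B (adjusted p = 0.464) and 0.59 for C, D and E, and the IC call did not hold without mouse A or C (adjusted p = 0.0772 and 0.0655).

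Tpi1, which interconverts the triose phosphates, rose after IC by 0.39 ± 0.10 in DMSO and 0.33 ± 0.10 in iBET (adjusted p = 0.0113 and 0.044, and 0.000256 and 0.00271 with the block). Pgk1, which yields the first ATP, rose by 0.29 ± 0.058 and 0.26 ± 0.058 (adjusted p = 0.00144 and 0.00614) without overlap between groups. Tpi1 lost its call without mouse C or D in DMSO and without A, B, C or D in iBET, and Pgk1 without D in iBET (adjusted p = 0.066). After IC in DMSO, Tpi1 was 0.24 within mice A and B (adjusted p = 0.16) and 0.52 within C, D and E, and Pgk1 0.16 (adjusted p = 0.233) and 0.39. In iBET, Pgk1 was 0.26 within each set (adjusted p = 0.0578 in A and B). Neither was called with iBET. Aldoa, the main aldolase, was called after IC with the block only (0.22 and 0.24, adjusted p = 0.00986 and 0.0116 with the block). Aldoc, its minor relative, rose with iBET in IC (0.36 ± 0.14, adjusted p = 0.0364), a call lost without mouse D or E (adjusted p = 0.12 and 0.0617).

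In lower glycolysis, Pgam1 had the largest called rise after IC in DMSO. This phosphoglycerate mutase (chr19:41911923-41918660, plus strand) read 486, 475, 349, 341 and 355 CPM in mice A to E in DMSO Ova and 769, 672, 601, 556 and 584 CPM in DMSO IC, and no Ova library reached an IC library. With iBET it read 540, 468, 422, 410 and 421 CPM in Ova and 703, 667, 599, 591 and 525 CPM in IC, where mouse A in Ova lay above mouse E in IC. Pgam1 rose by 0.67 ± 0.12 in DMSO, a fold of 1.59 (adjusted p = 0.000715), and by 0.45 ± 0.12 in iBET (adjusted p = 0.0191), in 5 of 5 mice each. The call in iBET was lost without mouse B, C or D (adjusted p = 0.0702, 0.0908 and 0.0766) and stood at an adjusted p of 4.45e-06 with the block.

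Eno3, the muscle-type enolase (chr11:70657202-70662513, plus strand), had the deepest fall with iBET. It read 6.68, 5.99, 15.2, 12.9 and 11.6 CPM in mice A to E in DMSO Ova and 3.07, 2.98, 5.08, 3.92 and 5.27 CPM in iBET Ova. With IC it read 6.47, 7.63, 18.2, 15.6 and 16.6 CPM in DMSO and 3.48, 3.14, 4.76, 5.25 and 4.78 CPM in iBET. Its counts were low, from 55 to 126 per library in iBET Ova and from 83 to 110 in iBET IC. Mice A and B were lowest in every group, and still no iBET library overlapped with a DMSO library of its stimulus. Eno3 fell by 1.37 ± 0.31 in Ova, to a fold of 0.387 (adjusted p = 0.000754), and fell by 1.6 ± 0.30 in IC, to 0.33 (adjusted p = 0.000157). Within mice A and B the differences were -1.07 and -1.09, and within C, D and E -1.48 and -1.76.

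Pkm, the pyruvate kinase of these cells, rose in all 4 comparisons. After IC in DMSO and iBET the rises were 0.40 ± 0.10 and 0.33 ± 0.10 (adjusted p = 0.00932 and 0.0455, and 0.000221 and 0.00273 with the block). With iBET in Ova and IC they were 0.36 ± 0.10 and 0.28 ± 0.10 (adjusted p = 0.00578 and 0.0266, and 0.000188 and 0.00238 with the block). The call after IC was lost without mouse C or D in DMSO and without B, C or D in iBET, and the one with iBET in IC without C or D. Within mice A and B, Pkm was 0.13 with iBET in Ova and 0.24 after IC in DMSO (adjusted p = 0.334 and 0.204), against 0.54 for both within C, D and E. After IC in iBET it was 0.39 in A and B and 0.28 in C, D and E (adjusted p = 0.0589 for the latter). Eno1, the main enolase, rose after IC by 0.26 ± 0.074 and 0.24 ± 0.074 (adjusted p = 0.0193 and 0.0429, and 0.00321 and 0.00947 with the block). The call in DMSO was lost without mouse C, D or E, and that in iBET without any 1 of the 5 mice. In DMSO the value was 0.11 within A and B (adjusted p = 0.454) and 0.37 within C, D and E, and in iBET 0.32 and 0.18 (adjusted p = 0.0901 for the latter). Bpgm, which makes the bisphosphoglycerate of red cells, fell with iBET by 0.36 ± 0.13 and 0.41 ± 0.13 (adjusted p = 0.0202 and 0.00917), with calls lost without A, B or E in Ova and without A in IC, and also within C, D and E in Ova (-0.13, adjusted p = 0.47) and within A and B in IC (adjusted p = 0.072). Eno2, the neuronal enolase, had at most 49 counts in a library and was not called without the block.

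For the fate of pyruvate, the kinases that switch off pyruvate dehydrogenase parted with iBET. Pdk1 rose by 0.45 ± 0.10 in Ova and 0.41 ± 0.10 in IC (adjusted p = 0.00071 and 0.00151), in 5 of 5 mice each and no 1 mouse left out ended the call. Pdk3 rose by 0.20 ± 0.073 in Ova (adjusted p = 0.0278, lost without A or E and within either set of mice). Pdk2 fell by 0.42 ± 0.17 in Ova and 0.48 ± 0.18 in IC (adjusted p = 0.0448 and 0.0269, and 0.00192 and 0.00106 with the block). The Pdk2 calls were lost without A, B, C or E and within either set of mice. Ldha, the lactate dehydrogenase of activated cells, rose after IC in iBET by 0.30 ± 0.087 in 5 of 5 mice (adjusted p = 0.0323, and 0.00235 with the block). This call was lost without A, B, C or D and within C, D and E. In DMSO the Ldha value was 0.21 (adjusted p = 0.0999, and 0.013 with the block). Ldhb, the isoform that favours pyruvate, and Pdha1, the catalytic subunit of pyruvate dehydrogenase, were called in none of the 4 comparisons without the block.

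Per kilobase of exon, the 31 genes with a length ranged from 517 CPM per kb for Aldoa and 269 for Pgam1 through 46.3 for Slc2a1 and 20.8 for Hk2 to 0.2 for Eno2 (medians over 20 libraries). Levels of near-identical copies are uncertain, since how shared reads were counted is not given in the sources used here. Eno1b, a copy of Eno1, held 976 ± 59.5 CPM (SD, n = 5) in DMSO Ova beside 825 ± 107 CPM for Eno1, and it also rose after IC (0.26 ± 0.072 in DMSO, adjusted p = 0.0147, and 0.28 ± 0.072 in iBET, adjusted p = 0.0162). Aldoart1, a copy of Aldoa, held at most 1.72 CPM.

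The per-kilobase shares describe the isoenzyme makeup of the families in each group, with no test, and they depend on the exon lengths used. Hk3 held a median of 55.3% of the hexokinase level in DMSO Ova, 46.9% in DMSO IC, 39.9% in iBET Ova and 35.8% in iBET IC. Hk2 held 27.9%, 37%, 40.6% and 50.7% in the same order. Per kilobase, Hk3 was the largest share in every DMSO library and Hk2 in every iBET IC library, where it ran from 48.2% to 54.3%. The order was mixed in iBET Ova, with Hk3 above Hk2 in mice A, D and E and below it in B and C. In CPM, without division by length, Hk2 was above Hk3 in every DMSO IC library as well.

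Pfkl made up 25.7% of the phosphofructokinase level in DMSO Ova and 34.4% in DMSO IC, against 49.7% in iBET Ova and 53.4% in iBET IC, while Pfkp went from 71.2% in the first to 43.7% in the last. In CPM, Pfkp stayed above Pfkl in every library. Slc16a1 held 30.4% and 30.2% of the lactate transporter level in DMSO and 59.2% and 60.7% in iBET. For Slc16a1 the lowest iBET library was at 52.8% and the highest DMSO library at 34.7%. In the PFKFB family, Pfkfb2 stood at 12.6% and 15.5% in DMSO and at 32.9% and 31.9% in iBET, and Pfkfb3 at 43.5% and 43.3% against 25.3% and 28.5%. Slc2a1 held at least 96.4% of its pair in every library, and Aldoa and Ldha at least 96% of theirs. Eno1 held at least 94% of the sum of Eno1, Eno2 and Eno3, from which its copy Eno1b was left out.

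**Figure D4:**
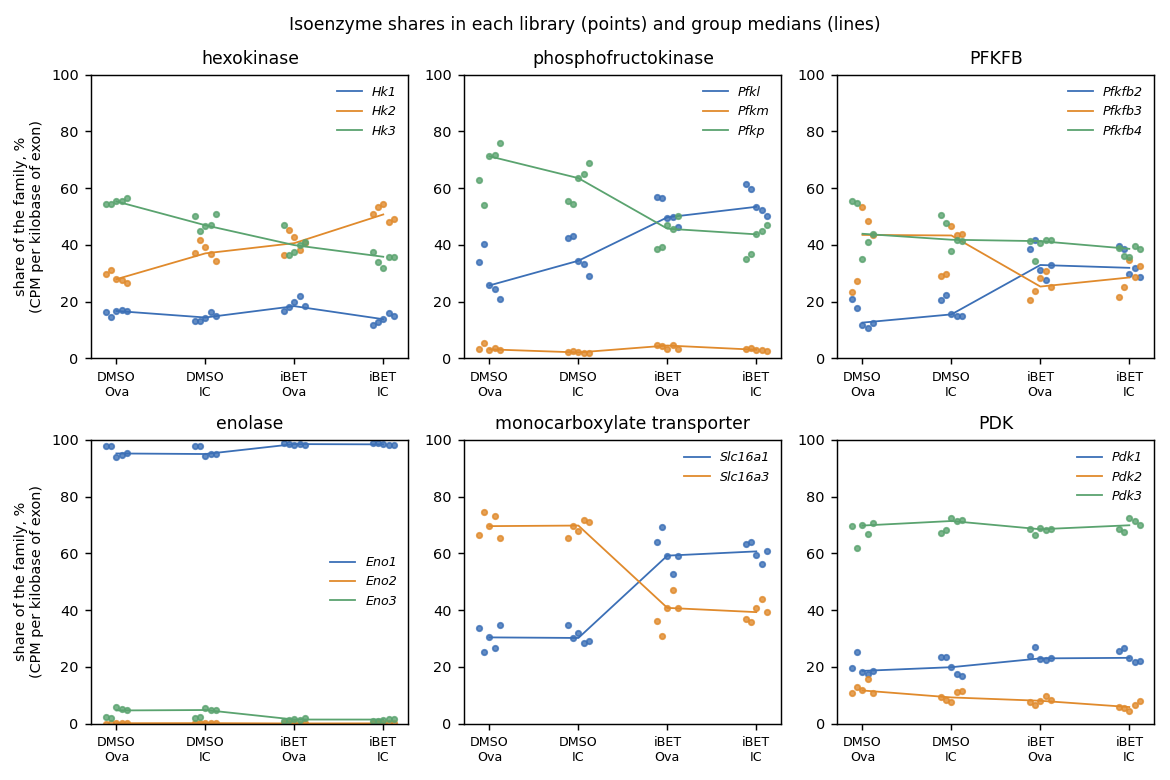
Share of each isoenzyme in its family's summed level per kilobase (y axis, percent) in the 4 groups (x axis), with 1 point per library, mice A to E from left to right, and lines through the medians of 5 libraries. Slc16a1 and Slc16a3 trade places between DMSO and iBET (30.4% to 59.2% for Slc16a1 in Ova). Hk2 is above Hk3 in all iBET IC libraries but only in some iBET Ova libraries, and the Pdk3 medians stay between 68.5% and 71.4%.

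Whether the iBET effect differed between IC and Ova was tested as an interaction. By edgeR, 0 of the 33 genes were called in either direction (0.0241% and 0.016% of all genes higher and lower), and 0 with the block (0.401% and 0.417%) or by DESeq2. At an unadjusted p under 0.05 there were 3 of 33, where 4.36% of all genes passed that level, and with the block 8 of 33, where 11.2% did. The smallest p belonged to Hk3, whose iBET fall was 0.33 ± 0.12 smaller in IC, in 5 of 5 mice (adjusted p = 0.934, and 0.0732 with the block). Next without the block was Pfkfb4, whose fall was 0.27 ± 0.12 smaller in IC, in 5 of 5 mice (not called, and adjusted p = 0.313 with the block). With the block, Slc16a1 came next after Hk3, its iBET rise being 0.32 ± 0.083 smaller in IC, in 5 of 5 mice (adjusted p = 0.0773). Pgam1, Hk2 and Slc2a1 (adjusted p = 0.199, 0.223 and 0.271 with the block) also came before Pfkfb4 in that fit.

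Neighbouring pathways were followed through lists of other genes, whose counts are small and stand against the same background: with iBET 27.7% of all genes rose and 28.9% fell in Ova and 27.1% and 29% in IC, and after IC 9.59% and 10.7% in DMSO and 5.19% and 6.63% in iBET. Of 9 genes for the entry of pyruvate into mitochondria, 6 rose and 0 fell with iBET in Ova, and 4 rose and 0 fell in IC. Pdhb, a subunit of pyruvate dehydrogenase, rose by 0.60 ± 0.051 in Ova and 0.58 ± 0.050 in IC (adjusted p = 5.65e-09 and 7.54e-09), and Pdp1, the phosphatase that reactivates the complex, rose by 0.63 ± 0.091 and 0.48 ± 0.090. After IC in DMSO, 4 of the 9 rose and 1 fell. Mpc1, part of the pyruvate carrier, rose by 0.40 ± 0.11 (adjusted p = 0.0153), and in iBET 1 rose and 0 fell.

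Among 11 tested chaperones and regulators, 5 rose and 0 fell with iBET in Ova, and 5 rose and 1 fell in IC. After IC 2 rose and 1 fell in DMSO, and 0 rose and 1 fell in iBET. Txnip, which restrains glucose uptake, read from 1010 to 1230 CPM in DMSO Ova and from 2720 to 3170 CPM in iBET Ova, and from 346 to 468 CPM and from 680 to 1080 CPM in the IC groups. It thus rose with iBET by 1.37 ± 0.11 in Ova and 1.10 ± 0.11 in IC, and after IC it fell by 1.53 ± 0.11 in DMSO and fell by 1.80 ± 0.11 in iBET (adjusted p from 2.02e-08 to 3.38e-09 for the falls). Bsg, the chaperone of the lactate transporters, rose with iBET by 0.46 ± 0.13 and 0.43 ± 0.13 (adjusted p = 0.00429 and 0.00628). Hif1a, the oxygen-regulated activator of glycolytic genes, rose after IC in DMSO by 0.49 ± 0.095 (adjusted p = 0.0012) and fell with iBET in IC by 0.25 ± 0.095 (adjusted p = 0.0283).

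Further isoforms (11 tested) had 5 higher and 3 lower with iBET in Ova, and 5 and 2 in IC. Adpgk, an ADP-dependent glucokinase, rose by 1.22 ± 0.11 and 1.33 ± 0.11 (adjusted p = 7.82e-09 and 2.45e-09), and Tigar, which removes the activator of phosphofructokinase, by 0.77 ± 0.11 and 0.53 ± 0.10. After IC 0 rose in either treatment, and 4 fell in DMSO and 2 in iBET. Of 8 pentose phosphate genes 2 rose with iBET in Ova and 1 in IC, and 2 rose after IC in DMSO and 1 in iBET, with 0 lower throughout. Pgd was the one that rose after IC under both treatments (0.34 ± 0.081 and 0.29 ± 0.081, adjusted p = 0.00574 and 0.024).

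Of 10 tested glycogen genes, 2 rose and 1 fell with iBET in Ova, 3 and 1 in IC, and after IC 0 rose while 2 fell in DMSO and 1 in iBET. Gys1, glycogen synthase, fell with iBET by 0.28 ± 0.065 and 0.59 ± 0.066 (adjusted p = 0.00123 and 2.64e-07). Of 5 tested gluconeogenesis genes, 3 rose in each stimulus with iBET and 1 fell in Ova, and after IC 0 rose and 1 fell under each treatment. That was Pck2, the mitochondrial PEP carboxykinase, which fell by 0.72 ± 0.072 and 0.70 ± 0.072 (adjusted p = 1.27e-06 and 2.26e-06).

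Cell type markers were counted against the same background, which with the block was 33.5% higher and 35.2% lower with iBET in Ova, 32.6% and 35.4% in IC, and after IC 18.3% and 19.8% in DMSO and 14.2% and 14.7% in iBET. Of 11 tested macrophage markers 1 rose and 6 fell with iBET in Ova, and 1 and 4 in IC. With the block 2 of them rose and 8 fell in Ova, and 2 and 6 in IC. Of 10 dendritic cell markers 0 rose and 2 fell under each stimulus, and with the block 1 rose and 6 fell in Ova and 2 and 7 in IC. Of 9 neutrophil markers 1 rose and 1 fell under each stimulus, and with the block 1 rose and 2 fell under each. After IC the fit without the block called 0 dendritic cell markers in either treatment and 1 macrophage marker lower in DMSO. With the block, 5 dendritic cell markers were higher in each treatment and 1 was lower in DMSO. Of the macrophage markers 2 were higher and 2 lower in DMSO, and 6 higher and 1 lower in iBET. Of the neutrophil markers 0 were higher and 2 lower in DMSO, and 1 higher and 1 lower in iBET. The summed dendritic cell markers had medians of 6250 CPM in DMSO Ova, 7150 CPM in DMSO IC, 6610 CPM in iBET Ova and 7550 CPM in iBET IC. Those of macrophages had medians of 13100, 14100, 14600 and 16900 CPM in the same order, and those of neutrophils 555, 588, 556 and 614 CPM. Such sums follow mainly the most abundant markers. The median log2 fold change over single macrophage markers with iBET was -0.677 in Ova and -0.377 in IC. Over dendritic cell markers it was -0.257 and -0.244. The part of these markers in the glycolysis results was not tested.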

How the data were processed

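Total RNA from 20 BMDC cultures (4 from each of 5 mice) was sequenced with a stranded low-input kit. The deposited values were raw counts per gene made by the authors. The submitters' processing notes name CASAVA, Trim Galore, FastQC, HISAT2, featureCounts and mm10, and the strand and shared-read settings are not given in the sources used here. A second deposited table held the same counts divided by 1 factor per library and was not used.

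Counts were analysed in R 4.3.3 with edgeR 4.0.16: filterByExpr, TMM scaling, a quasi-likelihood fit of the 4 groups and Benjamini-Hochberg adjustment over 12465 genes, with an adjusted p under 0.05 as the threshold. Fold changes use edgeR's default prior count. A prior count of 2 was used only for the log2 CPM behind the principal components and the correlations between libraries. Alternatives were the mouse as a block, DESeq2 1.42.0 (test and size factors), scaling by library size, no filter, surrogate variables (sva 3.50.0), only the libraries compared, each mouse left out, values within mice A and B and within C, D and E, a fold minimum, and isoenzyme shares without division by length. Values in every library are given for up to 3 called genes with the largest rises and falls per comparison. The glycolysis genes and other lists were chosen with earlier results of these data known.

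The labels tie libraries to mice. Deviations of same-mouse libraries from their group means correlated at 0.524 on average (lowest 0.307, 30 pairs), against -0.127 for different mice (120 pairs). No pair of libraries within a group was alike within sampling noise (chi-square per degree of freedom at least 10.42 over 40 pairs). Total counts had a median of 21764663 per library. Positions are from GENCODE M21 on GRCm38, and exon lengths were found for 31 of the 33 genes.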

Additional observations from a re-analysis of the deposited data

Results flagged for a closer look

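In 4 of 132 sets of 5 libraries (33 genes in 4 groups), 1 library lay far from the other 4 by Dixon's ratio, the gap to the nearest library over the whole range. Chance flags about 1 in 20 groups. Mouse B was lowest for Pgm2 in iBET Ova (40.4 CPM, next 46 CPM, ratio 0.769) and for Pgk1 in DMSO IC (517 CPM, next 546 CPM, ratio 0.862), and highest for Pdk1 in DMSO Ova (48 CPM, next 35.9 CPM, ratio 0.836). Mouse D was highest for Ldhb in iBET IC (10.1 CPM, next 6.44 CPM, ratio 0.765).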

How the results depend on the processing

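Of 59 calls of single genes, 59 passed with the replicate block, by DESeq2's test, with its size factors and with surrogate variables, 49 with scaling by library size, 50 without a filter and 52 with only the libraries compared. Leaving out each mouse kept 222 and lost 73 of these calls over the 5 fits, and no call changed sign under any of these. The replicate block added 20 calls of genes named but not called. It moved genes lower after IC in iBET from 0 to 1 (14.7% of all genes), as surrogate variables did (1, with 11.3%). In the same comparison, library size alone gave 2 lower and 3 higher (16.3% and 2.51%), and no filter gave 4 higher (2.61%). Without each mouse in turn, genes higher after IC ranged from 4 to 12 in DMSO (4.54% to 9.77% of all genes). After IC in iBET they ranged from 2 to 9 (2.27% to 4.43%). Genes higher with iBET ranged from 9 to 14 in Ova (24.5% to 28.2%) and from 7 to 12 in IC (23.7% to 26.7%). Genes lower with iBET ranged from 6 to 8 in both (24.6% to 27.6% in Ova and 24.8% to 28% in IC). Fits with the replicate block and a mouse left out were added after seeing the data. There, genes higher with iBET reached 17 in Ova and 15 in IC without mouse B (34.3% and 32.4% of all genes). Genes lower after IC reached 4 in DMSO without A (19.3%). After IC in iBET, 1, 2 and 1 were lower without A, B and E (11.4%, 11.8% and 15.2%). Within mice A and B, 5 genes were higher with iBET in Ova (24.1% of all genes). In these mice 3 were higher and 1 lower after IC in DMSO (4.23% and 4.04%), and Eno2 turned to 0.179 with iBET in IC (adjusted p = 0.73 by edgeR). Within C, D and E the counts were 17 higher with iBET in Ova and 4 higher after IC in iBET (27.2% and 4.53% of all genes). Requiring a log2 fold change of at least 0.5 left 4 higher and 5 lower with iBET in Ova (14.6% and 19.4% of all genes). With iBET in IC it left 5 and 4 (14.7% and 19.1%). After IC it left 4 higher and 1 lower in DMSO (2.91% and 4.2%) and 1 higher in iBET (1.63%). The cause of these changes was not tested. Without division by length, 74 of 92 isoenzyme shares moved beyond their SD. Low counts limit Pfkm, Eno2, Slc2a3, Bpgm, Eno3, Ldhb and Pdk2, and genes with near-identical copies depend on how shared reads were counted.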
